A study of Arabidopsis thaliana with 3 samples.

Results

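Some mRNA tails end in a G or a C that follows the poly(A) stretch. These were examined by TAIL-seq in flowers of Arabidopsis thaliana of wild-type (WT) genotype Col-0. TAIL-seq ligates an adapter to the free 3′ ends of RNA and sequences pairs of reads, of which 1 names the mRNA and its mate gives the tail base by base. The study needed the libraries for a ranking of mRNAs by their uridylation, in which U is added to the tail. The 3 libraries were biological replicates of 1 group, with no mutant and no treatment, so every comparison below is between kinds of tails, or between mRNAs, within the same libraries. Reads were selected on the added nucleotides themselves, and chosen when these were all G or all C. This gave 3332 members out of 442916 reads, of which 1464 were G tails and 1868 were C tails. They were set against the 399383 unmodified tails, which carried nothing after the As, and in places against the 40201 uridylated tails.

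Poly(A) tails are shortened by deadenylases, and the nucleotides that terminal nucleotidyltransferases add after the last A can change how fast a tail is trimmed or how an mRNA is degraded. In Arabidopsis the terminal uridylyltransferase URT1 is the main enzyme that uridylates mRNAs. In mammalian cells, noncanonical poly(A) polymerases of the TENT4 family add single Gs that slow deadenylation. A base read after a short stretch of As can also be part of the genome, where the transcript holds a run of As of its own.

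Tails were measured on 222681 reads in replicate 1, on 113458 in replicate 2 and on 106777 in replicate 3. Replicate 1 came from 1 sequencing run, and replicates 2 and 3 from another, so the run and the difference between replicate 1 and the others cannot be told apart. As a check of the tissue, all 7 floral organ identity genes looked up had reads (8 to 211 each), while 3 root hair genes had 1 read in all. The mRNAs that the study followed by 3′RACE-seq, with AT2G45160, took 1.58%, 29.6% and 23.4% of the reads of replicates 1, 2 and 3. Results whose direction or side of the threshold changed without these 23 mRNAs are given in both forms.

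G tails numbered 604, 427 and 433 in replicates 1, 2 and 3, which was 0.271%, 0.376% and 0.406% of all reads. C tails numbered 766, 634 and 468, or 0.344%, 0.559% and 0.438%. C tails outnumbered G tails in each library, by 1.28 ± 0.20 times (SD, n = 3). These shares are what chose the members, so they are a description and were not tested. Nearly all additions were of a single base, and no read had more than 2 added Gs or Cs. A mixture of bases could not occur among these reads, which were chosen for additions of G alone or C alone. The deposited data recorded no mixed addition in any read, so mixtures could not be examined. An addition of 2 bases was seen in 23 G tails and 11 C tails. The additions were thinly spread over mRNAs, with G tails on 755 loci and C tails on 1099, out of 16577 loci with reads. Of these, 553 loci had a single G tail, 814 had a single C tail, and 283 had both kinds. The 10 loci with the most tails held 24.5% of G tails and 17.3% of C tails.

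Both kinds of tails were shorter than unmodified tails, G tails more so than C tails. Median lengths were 19, 17 and 17 As for G tails in replicates 1, 2 and 3, and 23.5, 19 and 20 As for C tails, against 26, 22 and 22 As for unmodified tails. Tails of under 10 As, which the study calls excessively deadenylated, made up 14.4%, 19% and 23.8% of G tails, against 1.24%, 2.48% and 2.92% of unmodified tails. G tails exceeded unmodified tails here by 16.8 ± 3.87 percentage points (SD, n = 3). With library as stratum, a Cochran-Mantel-Haenszel test gave a chi-square of 1853, with p too small to be represented. Among C tails the shares under 10 As were 6.66%, 8.36% and 12.2%, which exceeded the unmodified tails by 6.85 ± 2.1 points (SD, n = 3). The adjusted p of the same test was 2.5e-84. The excess was 4.46 points without the loci that match the mitochondrial genome, described below, and 3.99 points with mRNA as a further stratum. G tails thus held more tails of under 10 As than C tails in each library, by 9.99 ± 2.00 points (SD, n = 3), with an adjusted p of 2.7e-16. This last difference was lost without reads whose gene holds an annotated run of as many As followed by G or C, where it was -0.17 points with an adjusted p of 0.94.

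Among tails of 10 or more As, the order was the same and did not rest on such runs. The class of 10 to 25 As held 64.8%, 82.4% and 84.2% of G tails in replicates 1, 2 and 3, against 47.2%, 61.3% and 61.2% of unmodified tails. The difference was 20.5 ± 2.77 points (SD, n = 3), with an adjusted p of 2.1e-44. C tails exceeded unmodified tails in this class by 5.17 ± 1.58 points (SD, n = 3), with an adjusted p of 1.1e-05, and were exceeded by G tails by 15.4 ± 3.76 points (SD, n = 3), with an adjusted p of 1.0e-16. Counting the added bases as part of the length took the difference between C tails and unmodified tails to 2.11 points, with an adjusted p of 0.053.

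Read by length, G and C parted at both ends of the range. Shares here are of G (or C) tails plus unmodified tails of the same length, and they are descriptions. At 6 As, the shortest length recorded, G tails were 7.35%, 9.25% and 8.30% in replicates 1, 2 and 3, and C tails 3.17%, 2.75% and 2.37%. At 16 to 25 As the values lay close together, with 0.326%, 0.386% and 0.421% for G tails and 0.326%, 0.540% and 0.414% for C tails. At 41 to 60 As, G tails were down to 0.0941%, 0.0929% and 0.0688%, while C tails were at 0.362%, 0.646% and 0.497%. The share of C tails was higher at 41 to 60 As than at 26 to 40 As in each library, and the share of G tails was lower in each. The number of G tails per C tail was 3.25 ± 0.72 at 6 As, 1.04 ± 0.29 at 7 to 9 As, 0.91 ± 0.17 at 16 to 25 As and 0.18 ± 0.07 at 41 to 60 As (SD, n = 3).

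**Figure D1:**
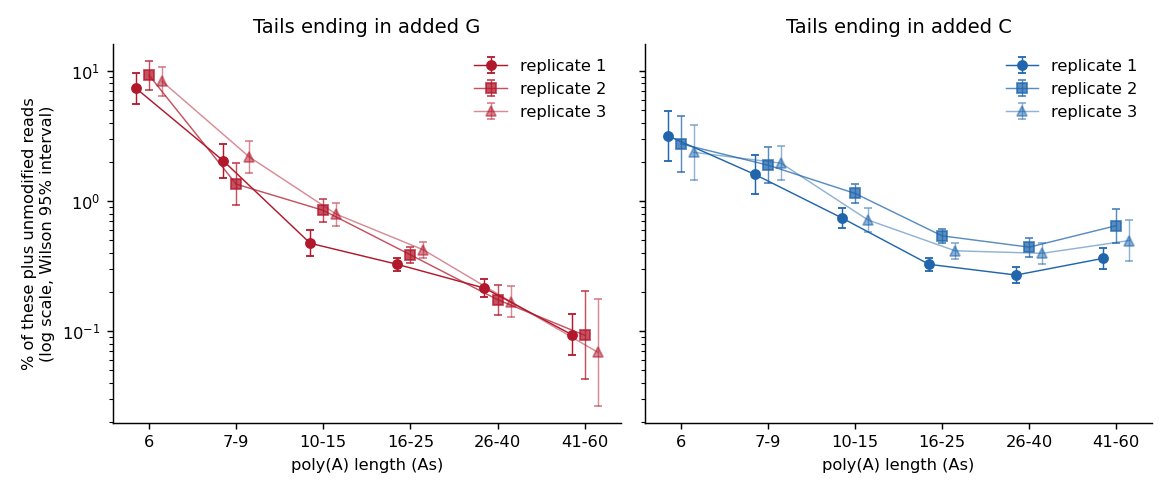
Share of tails ending in an added G (left) and in an added C (right) among these plus unmodified tails, in percent on a log scale, by poly(A) length in As, with 1 point per library and Wilson 95% intervals. The G share was lower in each longer class in all 3 libraries, to 0.0688% to 0.0941% at 41 to 60 As, where the C share was 0.362% to 0.646%.

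The reads of 6 to 9 As were then compared with the transcripts of their genes, as annotated by RefSeq on TAIR10.1. For a read of n As and 1 added base, the gene was searched on its sense strand for a run of exactly n As followed by that base. In G tails of 6 to 9 As, 61.7%, 67.1% and 60.6% of reads belonged to genes with such a run in replicates 1, 2 and 3. For unmodified tails weighted to the same lengths the values were 17.5%, 27.2% and 22.3%. The difference was 40.8 ± 3.07 points (SD, n = 3), and the Cochran-Mantel-Haenszel test with library and length as strata gave an adjusted p of 2.2e-55. Without the 23 mRNAs followed by 3′RACE-seq, it was 50.7 points, with an adjusted p of 5.3e-61 in the same test. The p-values of this test count reads as independent, although reads of 1 gene at 1 length share the same outcome. Of the 161 G tails with a run, 31 were of AT1G24880, 13 of AT1G22930, 11 of RCI2A and 9 of AT3G07700. With all mRNAs, the difference was largest at 6 As. There 134 of 149 G tails (89.9%) lay in genes that hold AAAAAAG, against 585 of 1728 unmodified tails (33.9%), of which 225 were of RCI2A. C tails of 6 As lay in such genes in 11 of 46 cases. Genes with AAAAAAC, in which the base after the run is not the one added, also held more of the G tails of 6 As, with 63 of 149 (42.3%), against 475 of 1728 unmodified tails (27.5%). AAAAAAG occurs in annotated transcripts of 3899 of 16496 loci (23.6%), and AAAAAAC in 2995 (18.2%). At 7, 8 and 9 As the shares of G tails with the matching run were 40%, 22.6% and 6.45%, and those of unmodified tails were 8.32%, 3.42% and 1.89%.

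For C tails the same comparison, with C after the run, gave 26.5%, 10% and 10.7% in replicates 1, 2 and 3, against 8.97%, 11.5% and 10.5% of unmodified tails. The difference was 5.41 ± 10.6 points (SD, n = 3), with an adjusted p of 0.036. It rested on replicate 1, without which it was -0.66 points with an adjusted p of 0.96. Without the mRNAs followed by 3′RACE-seq, it was 7.38 points, with an adjusted p of 0.0017 in the same test. G tails with 2 added bases had the matching run in 10 of 15 reads of under 10 As, against 131 of 7776 unmodified reads, and C tails with 2 added bases in 0 of 6.

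Many of the G tails of 6 As belonged to genes in which such a run stands at the end of an exon, immediately before an intron. This feature was looked at after the sites had been seen, so it is given without a test. An exon that ends in exactly AAAAAAG is annotated in 80 of 16496 loci (0.485%). G tails of 6 As lay in these loci in 28 of 43 cases in replicate 1, 23 of 52 in replicate 2 and 25 of 54 in replicate 3. Unmodified tails of 6 As lay in them in 1 of 580, 2 of 530 and 4 of 618 cases. Pooled, this was 51.0% of G tails (Wilson 95% interval 43.1 to 58.9), over 28 of the 57 loci with such G tails, against 0.405% of unmodified tails (0.196 to 0.834). Of C tails and singly uridylated tails of 6 As, 0 of 46 and 0 of 202 did so. At all lengths other than 6 As, the share of G tails in these 80 loci was 0.305% of G plus unmodified reads, while over all reads of all lengths in the series it was 0.365%. The table gives no position for the end of a read, so whether these reads ended at those exons was not tested.

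**Figure D2:**
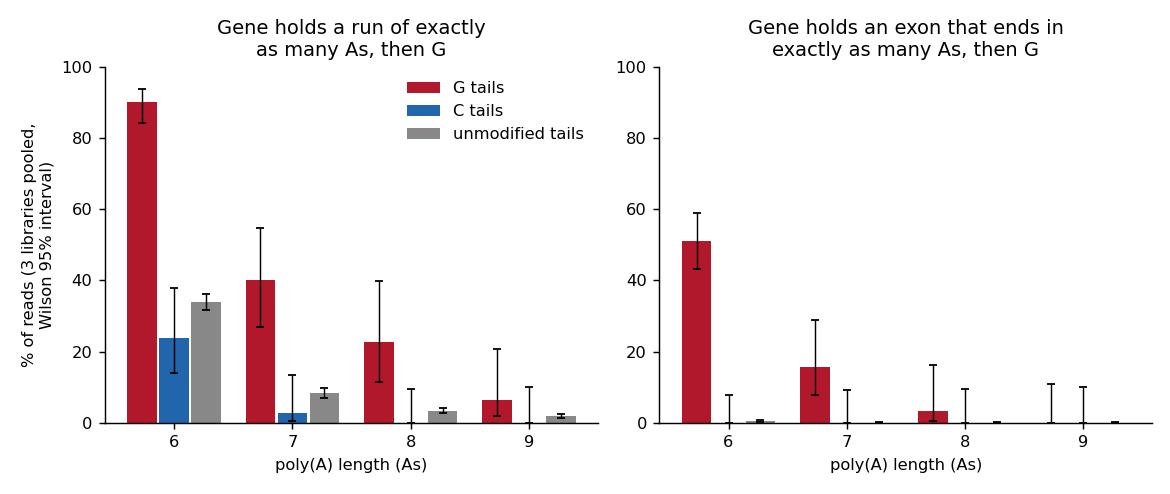
Percent of G tails, C tails and unmodified tails of 6 to 9 As (3 libraries pooled, Wilson 95% intervals) whose gene holds, left, a run of exactly as many As followed by G and, right, an exon that ends in that run and G. At 6 As the G tails stand at 89.9% and 51.0%, against 33.9% and 0.405% for unmodified tails.

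At least 3 G tails with a matching run were found in 13 genes, and the sites of 10 of these are printed here, because the genes hold the same As and G that the reads end in. Each is read from TAIR10.1, 5′ to 3′ on the strand of the gene, with the run of As and the following G in capitals. In the first 8 the G is the last base of an annotated exon, and the lower-case letters after it are the intron. AT3G01710 and NOXY38 hold a second run of 6 As and G inside an exon, which is not shown.
AT1G22930 (chr1:8117931-8117955, plus strand): gctgctgaacAAAAAAGgtgaaaac
AT3G07700 (chr3:2461106-2461130, minus strand): aaaaagatgcAAAAAAGgtaatttt
AT1G01930 (chr1:321743-321767, minus strand): aacttgctttAAAAAAGgtttgtct
AT4G14500 (chr4:8335726-8335750, plus strand): ttcagtggagAAAAAAGgtttctgg
AT3G01710 (chr3:260306-260330, minus strand): cagagagaagAAAAAAGgcaagaat
NOXY38, AT3G52140 (chr3:19334873-19334897, plus strand): ctctaagtttAAAAAAGgtgggaaa
SHD, AT4G24190 (chr4:12553241-12553265, minus strand): tgatgatgagAAAAAAGgtattcca
AT1G55690 (chr1:20812165-20812190, minus strand): cgacaagaacAAAAAAAGgtttacac
LpxC2, AT1G24880 (chr1:8776036-8776060, plus strand): gatccgcattAAAAAAGctaagttt
RCI2A, AT3G05880 (chr3:1756700-1756724, minus strand): ttgtatgtagAAAAAAGaaaagaaa

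Of the 13 genes, 10 had a run at an exon end. The next bases were GT, the usual start of an intron, in 9 of these and GC in 1, and the run lay in coding sequence in 8 and in the 5′ UTR in 2. Together the genes of these 10 sites had 57 G tails of the length of the run and 0 unmodified tails of that length. They were listed for having at least 3 G tails with a matching run, so the number of G tails was fixed in part by this choice. Counts are per gene, and some of the genes hold a second such run. In AT1G22930, annotated as a T-complex protein 11, G tails of 6 As numbered 3, 4 and 6 in replicates 1, 2 and 3, while its 7 unmodified tails, all in replicate 1, had a median of 24 As. AT3G07700, of the protein kinase superfamily, had 3, 5 and 1 G tails of 6 As, and its 11 unmodified tails had a median of 26 As. All 7 reads of AT1G01930, a zinc finger protein-like gene, were G tails of 6 As, with 2, 2 and 3 in the replicates. SHD, which encodes the HSP90 of the endoplasmic reticulum, had 3 G tails of 6 As beside 160 unmodified tails, none of them of 6 As. Apart from AT1G01930, which had no other reads, the genes just named had no unmodified tail as short as their G tails of 6 As.

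AT1G24880, a member of the LpxC family of UDP-3-O-acyl N-acetylglycosamine deacetylases, had the most such reads. Its G tails numbered 5, 11 and 17 in replicates 1, 2 and 3, and 31 of the 33 had 6 As, beside 1 unmodified tail of 6 As and 59 of all lengths. Its run lies in coding sequence, with the annotated exon ending 4 bases after the G. A share of 78.4% of its reads was counted for several genes, with LpxC3 (AT1G25054) among them, so the counts of these family members are uncertain. Of the 33 G tails of AT1G24880, 7 were shared in this way. LpxC3, all of whose reads were shared, had 7 G tails beside 58 unmodified tails. RCI2A, a small membrane protein induced by cold and salt, had 11 G tails of 6 As beside 225 unmodified tails of that length. Its run lies in the 5′ UTR and not at an exon end. BAM3, a receptor kinase whose site is not printed, likewise had 5 G tails of 7 As beside 28 unmodified tails of that length, and its run lies in the 3′ UTR and not at an exon end. Without AT1G24880, AT1G22930, AT1G01930, AT3G07700 and the genes that share their reads, the difference between G tails and unmodified tails over 6 to 9 As was 34.0 points, with an adjusted p of 5.0e-36.

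Without all reads whose gene holds a run of as many As followed by G or C, and without the loci that match the mitochondrial genome (next paragraph), G tails at 6 As were 1.54%, 1.23% and 1.06% in replicates 1, 2 and 3, and C tails were 2.74%, 1.63% and 0.712%. The intervals of both kinds overlapped in each library. At 10 As and above the removal changed little, with G tails at 0.326%, 0.386% and 0.421% at 16 to 25 As, the same values as before. The difference in the share under 10 As between G tails and unmodified tails was 5.53 points without the runs alone, with an adjusted p of 2.9e-45, against 16.8 points with them.

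C tails were frequent at a set of loci that lie mostly on chromosome 2. The Arabidopsis nuclear genome carries there a near-complete copy of the mitochondrial genome, and reads from the copy and from the organelle cannot be told apart by sequence. In plant mitochondria, unlike in the cytosol, a poly(A) tail marks a transcript for degradation. Loci were collected that share at least 50% of their 31-base words with the mitochondrial genome, which gave 42 loci and 855 reads (0.193% of all reads). The set was put together after AT2G07671 and AT2G07698 had been seen, so it is described and not tested. C tails were 6.43%, 11.5% and 9.65% of C plus unmodified reads at these loci in replicates 1, 2 and 3, and pooled they were 9.19%, against 0.448% at all other loci. They were on 20 of the 42 loci and made up 76 of the 1868 C tails, but 49 of the 161 C tails of under 10 As (30.4%).

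The share of C tails was high at these loci in both short classes of length. C tails were 10.7% of C plus unmodified reads at 6 to 9 As (Wilson 95% interval 8.21 to 13.9) and 8.39% at 10 to 25 As (5.83 to 11.9), where the other loci had 1.5% and 0.476%. G tails were few. At 6 to 9 As they were 0.730% at these loci (0.249 to 2.12) and 3.51% elsewhere, and in all they numbered 4.

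**Figure D3:**
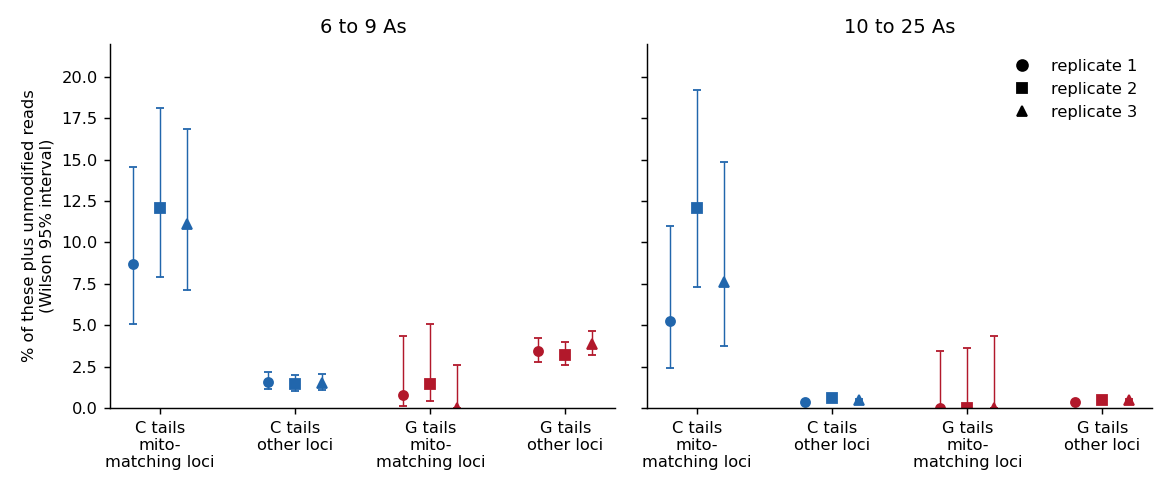
C tails and G tails as percent of these plus unmodified reads, at loci that match the mitochondrial genome and at all other loci, for tails of 6 to 9 As (left) and 10 to 25 As (right), with 1 point per library and Wilson 95% intervals. C tails at matching loci lie between 5.26% and 12.1%, above the other loci in both classes and all libraries.

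Both loci with the most C tails in this set were annotated as subunits of the mitochondrial ATP synthase. AT2G07671 (chr2:3251566-3252341), which encodes a subunit C family protein, had 6, 16 and 7 C tails beside 76, 63 and 58 unmodified tails in replicates 1, 2 and 3. Its C tails had a median of 7 As, and its unmodified tails one of 8 As. It had no G tail, and 0 of 197 allows a share of up to 1.52%. AT2G07698 (chr2:3361463-3364127), for the alpha subunit of the F1 complex, had 1, 8 and 3 C tails beside 26, 54 and 50 unmodified tails, and no G tail. AT2G07706, uncharacterized, had 8 C tails beside 54 unmodified tails, and AT2G07707, which encodes a subunit 8 protein, had 5 beside 71. The 4 loci together had no G tail.

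To ask which mRNAs stood out, each of the 676 mRNAs with at least 100 reads that were G, C or unmodified was compared with all other mRNAs. An exact conditional test of the odds ratio with library as stratum was used, with Benjamini-Hochberg adjustment. No G tail was found in 353 of them and no C tail in 276. At an adjusted p under 0.05, 3 mRNAs had more G tails than the others (0.444% of those tested) and 2 had more C tails (0.296%), namely AT2G07671 and AT2G07698. None had fewer of either, but for mRNAs near the minimum of reads such a call was not possible. AT2G16586, for example, was expected to have 0.538 G tails, and AT2G07698 0.747 C tails. At such numbers a count of 0 cannot pass the test, so the lack of lower calls says nothing of these mRNAs. At an unadjusted p under 0.05, 15 and 19 mRNAs had more G and more C tails, and 1 and 5 had fewer. An asymptotic test also called 0 lower, with 5 higher for G tails and 4 for C tails.

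AT2G07671 had 30.5 times the odds of a C tail of the other mRNAs (adjusted p = 1.7e-28, exact test), and AT2G07698 had 17.7 times (adjusted p = 1.3e-08, exact test). With the class of poly(A) length as a further stratum, the odds ratios were 11.7 and 7.19, and both calls were kept. In both, C tails exceeded the expected number in the 3 libraries pooled, with 29 against 1.12 and 12 against 0.747. AT2G16586, an uncharacterized protein, had 0, 8 and 1 G tails beside 23, 76 and 25 unmodified tails in replicates 1, 2 and 3, with odds 18.2 times those of other mRNAs (adjusted p = 6.5e-06, exact test). Of its 9 G tails, 8 came from replicate 2. Its tails were short in general, with a median of 8 As for unmodified tails.

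VSP1, a vegetative storage protein induced by jasmonate, had 5, 21 and 12 G tails beside 727, 2075 and 1481 unmodified tails. These were shares of 0.683%, 1.00% and 0.804%, above the shares of all reads in each library, and the odds were 2.20 times those of other mRNAs (adjusted p = 0.010, exact test). RCI2A had 0, 55 and 57 G tails beside 36, 8404 and 9070 unmodified tails, and odds of 1.52 times (adjusted p = 0.024, exact test). It had hardly any reads in replicate 1, and it belongs to the mRNAs followed by 3′RACE-seq. None of the 3 calls for G tails was kept when the class of poly(A) length was added as a stratum. The odds ratio was then 2.06 for VSP1 (adjusted p = 0.075, exact test), 3.45 for AT2G16586 and 0.96 for RCI2A. Among tails of 10 or more As alone, VSP1 had an odds ratio of 2.72 (adjusted p = 0.00025, exact test). No mRNA was called for G tails without replicate 2, where AT2G16586 fell under the minimum of reads.

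G tails were also compared with C tails directly, in 76 mRNAs with at least 5 reads of either kind. RCI2A had more G tails than expected (1.32% of those tested), with 112 G and 74 C tails and an adjusted p of 0.00015 by the exact test. It is itself among the 3′RACE-seq mRNAs, and once these were left out no other mRNA was called in this direction. AT2G07671 had more C tails (1.32%), with 0 G and 29 C tails and an adjusted p of 1.2e-05. Of the other mRNAs with many such tails, none that was tested passed. AT1G24880, with 33 G tails and 1 C tail, and AT1G22930, with 14 and 0, fell under the minimum of 100 reads and were not tested here. CRD1, an enzyme of chlorophyll synthesis, had 86 G and 102 C tails, BAM3 had 22 and 15, and ERD15, induced by dehydration, had 19 and 16. LHCA4, of the antenna of photosystem I, had 3 G and 16 C tails, and DRT112, a plastocyanin of photosynthetic electron transport, had 12 and 3. The adjusted p was 0.18 for LHCA4 and 0.15 for DRT112 by the exact test. AT1G24160, annotated as a triadin, had 15 G and 21 C tails, GRP7, an RNA-binding protein of the circadian system, had 8 and 15, and AT1G09690, of the translation protein SH3-like family, had 13 and 4.

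**Figure D4:**
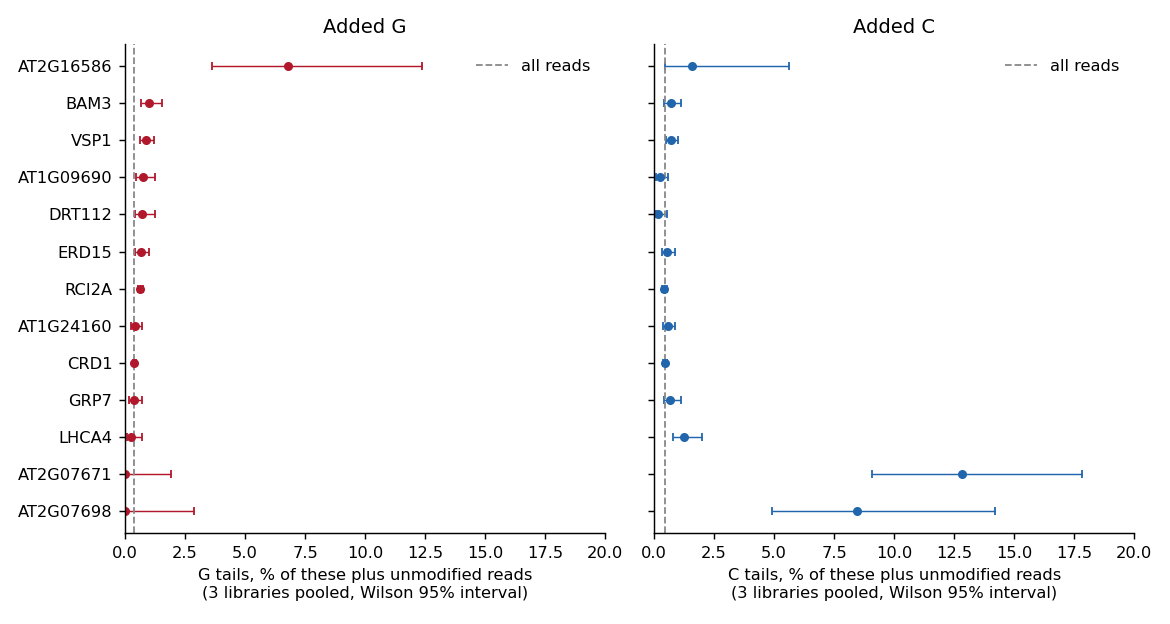
G tails (left) and C tails (right) as percent of these plus unmodified reads in the mRNAs with the most such tails or past a test that have at least 100 unmodified reads, 3 libraries pooled, with Wilson 95% intervals. The dashed lines mark all reads (0.365% for G, 0.466% for C). AT2G16586 stands apart for G, and AT2G07671 and AT2G07698 for C.

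With a minimum of 20 reads, the one used in the study, 7 mRNAs of 3058 had more G tails and 4 had more C tails. The additional ones for G tails were AT1G24880, AT1G22930 and AT3G07700, described above with runs of 6 As, and LpxC3, all of whose reads were shared with other genes, and those for C tails were AT2G07706 and AT2G07707. In the direct comparison of G with C tails at this minimum, 85 mRNAs were tested. AT1G24880 (33 G and 1 C), AT1G22930 (14 and 0), AT3G07700 (9 and 0) and RCI2A were called for more G. AT2G07671, AT2G07698 (0 and 12) and HAM1 (AT2G45160), a GRAS transcription factor, were called for more C. HAM1 had 0 G and 11 C tails (adjusted p = 0.041, exact test).

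Groups of mRNAs with related functions are described by their shares, set beside those of all reads. Ribosomal protein mRNAs had G tails in 0.260% and C tails in 0.312% of these plus unmodified reads, over 305 loci, and 0 of the 120 tested were called for either. Over all mRNAs tested, 0.444% were called for more G tails and 0.296% for more C tails, so a count of 0 in lists of this size is near that background. Photosynthesis mRNAs had 0.231% and 0.517%, with 0 of 33 called, and lipid transfer protein mRNAs had 0.237% and 0.578%, with 0 of 10 called. Oleosin and glycine-rich protein mRNAs had 0.349% and 0.376%, and histone mRNAs had 0.174% and 0.521%, with none called of 7 and 4 tested. All reads had 0.365% and 0.466%. The mRNAs followed by 3′RACE-seq had 0.493% G tails and 0.481% C tails, with RCI2A alone called among the 16 tested. The mRNAs of 17 tailing and decay factors, URT1 and HESO1 among them, had 0 G and 0 C tails beside 208 unmodified reads, which allows a share of up to 1.44%. URT1 itself had 5 unmodified reads and HESO1 had 2.

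Across 260 mRNAs with at least 250 reads, the percentage of G tails was hardly related to that of C tails, with a Spearman rho of 0.09. With the percentage of uridylated tails, rho was -0.08 for G tails and 0.08 for C tails. With the median length of unmodified tails it was -0.03 and 0.05. These values are across mRNAs that share the same libraries, and most of the percentages rest on a handful of reads.

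Set beside uridylated tails, G tails were more often under 10 As, by 11.2 ± 4.38 points (SD, n = 3), with an adjusted p of 4.0e-48 by the Cochran-Mantel-Haenszel test. Without annotated runs this difference was 0.48 points, with an adjusted p of 0.93. C tails differed from uridylated tails by 1.25 ± 2.47 points (SD, n = 3), with an adjusted p of 0.19, and the direction of this difference depended on the setting. It was 3.82 points with added bases counted as length and -3.56 points with a limit of 12 As in place of 10, and both values passed the threshold in the Cochran-Mantel-Haenszel test. Uridylated tails were 36.6%, 30.8% and 32.0% of uridylated plus unmodified reads at 9 As and were a smaller share at 6 As, with 20.9%, 18.3% and 21.0%, the length at which the share of G tails was highest. An addition of 2 bases was less frequent among C tails than among G tails by 0.93 ± 0.37 points (SD, n = 3), with an adjusted p of 0.0099. This difference was lost without annotated runs, with -0.24 points and an adjusted p of 0.75.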

How the data were processed

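TAIL-seq libraries were made by the study from ribodepleted flower RNA. Per the labels and the study's methods, a biotinylated adapter that starts with a 5-base delimiter and 15 random bases was ligated to 3′ ends, RNA was partially digested with RNase T1, and read 1 was mapped to TAIR10 (HISAT2 2.1.0 and bedtools 2.17.5 per the submitters' notes). The deposited table gives, for each read and gene, the number of As and the added bases, as lengths in nucleotides, not normalized. Because read 2 complements the RNA, a recorded C is an added G. Stretches under 6 As were not recorded, and tails over 91 nucleotides fill the read. After removal of 172 repeated rows, 442916 reads on 16577 loci remained, of which 16496 loci matched the RefSeq annotation of TAIR10.1. Reads given to several genes (2.15%) counted once over reads and once per gene.

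Kinds of tails were compared with two-sided Cochran-Mantel-Haenszel tests with library as stratum, adjusted (Benjamini-Hochberg) over 9 comparisons. The 2 tests of annotated runs were adjusted together. mRNAs were compared with an exact conditional test stratified by library (SciPy 1.17.1, statsmodels 0.14.6). Tests treat reads as independent, and Wilson intervals and the limit for a count of 0 (3 counts) cover counting error only. Both kinds of test were run on simulated reads drawn independently, so this check cannot show the effect of reads that cluster by gene. The mRNAs named were the 10 with the most G tails and the 10 with the most C tails, those past the tests, and URT1 and HESO1. Members and lists were chosen with earlier results of these data known, and AT1G01930, AT3G07700, LpxC3, HAM1, the genes of the printed sites and the loci matching the mitochondrial genome were chosen after their values were seen.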

Additional observations from a re-analysis of the deposited data

How the results depend on the processing

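The 3 libraries form 1 group, so there were no groups of samples to pair. Kinds of tails were compared within each library, with library as stratum. A comparison was taken as unchanged when it kept its side of the threshold, and also its direction where the threshold was passed. A count of mRNAs was taken as unchanged when within a factor of 1.5 of the main count. Of the alternative values of the comparisons and counts, 165 of 201 were unchanged. Values that changed are given here, and where no construction shows it the cause was not tested. The difference in the share under 10 As between C tails and uridylated tails (1.25 points) was 3.52 with 1 added nucleotide only, 3.82 with added nucleotides counted as length, 2.43 with a limit of 8 As, -3.56 with a limit of 12 As, -2.67 with mRNA as a stratum and -1.21 without loci matching the mitochondrial genome, all past the threshold, and it ranged over -0.074 to 2.37 when leaving out 1 replicate. Between G and C tails it was 2.97 with mRNA as a stratum and -0.17 without annotated runs, and between G and uridylated tails it was 0.48 without the runs. The share with 2 added nucleotides differed by -0.52 with mRNA as a stratum and -0.24 without the runs, with -1.14 to -0.77 when leaving out 1 replicate. C tails against unmodified tails at 10 to 25 As gave 2.11 with added nucleotides counted as length. Runs followed by C gave 0.74 when a run of at least as many As sufficed, and -0.66 to 8.86 when leaving out 1 replicate.

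The count of mRNAs with more G tails (3) was 5 with the asymptotic test, 7 with at least 20 reads, 0 with poly(A) class as stratum, 1 with only tails of 10 or more As, and 0 to 4 when leaving out 1 replicate. The count with more C tails (2) was 4 with the asymptotic test, 4 with at least 20 reads, 0 with at least 250, 0 with only tails of 10 or more As, and 1 to 2 when leaving out 1 replicate, where AT2G07698 fell under the minimum of reads. In the settings that gave 0, AT2G07671 (229 reads) and AT2G07698 (156 reads) fell under the minimum and were not tested. Of their unmodified tails, 116 of 197 and 68 of 130 were under 10 As. With only tails of 10 or more As, AT2G16586 was likewise not tested for G tails. The count with fewer C tails (0) was 1 with poly(A) class as stratum. The count with more C than G (1) was 3 with at least 20 reads, 0 with at least 250, 2 with poly(A) class as stratum, 0 with only tails of 10 or more As, and 1 to 3 when leaving out 1 replicate. Here too, AT2G07671 was not tested with at least 250 reads or with only tails of 10 or more As. The count with more G than C (1) was 4 with at least 20 reads and 2 with only tails of 10 or more As. It was 0 without the 3′RACE-seq mRNAs, among which is RCI2A, the mRNA counted. The odds ratio of RCI2A (AT3G05880) for G tails was 0.96 with poly(A) class as stratum. The removal of annotated runs, of loci matching the mitochondrial genome and of tails under 10 As per mRNA, the weighting of each mRNA once, the removal of 4 loci with their read-sharing genes and the restriction to exon ends were chosen after seeing the data.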

Other observations

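The share of G and C tails was close on both surfaces of the flow cell. On the second and the first surface, G tails were 0.271% and 0.271% of reads in replicate 1, 0.346% and 0.386% in replicate 2, and 0.403% and 0.406% in replicate 3. C tails were 0.387% and 0.332%, 0.552% and 0.561%, and 0.439% and 0.438% in the same order. The Wilson 95% intervals of the surfaces overlapped in each of these pairs.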
